A study of Homo sapiens with 12 samples.

Results

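The genes described here encode enzymes that make serine, folate-bound one-carbon units, asparagine and proline. They are PHGDH, PSAT1, PSPH, SHMT2, MTHFD2, ALDH1L2, MTHFD1L, ASNS, PYCR1 and ALDH18A1, taken by symbol from a table of 28278 genes. All 10 were found, and all 10 were among the 15805 genes with enough counts to test. RNA was sequenced from K562, a human erythroleukaemia line that carries fetal and embryonic globin programmes and turns further towards red cells under sodium butyrate, an inhibitor of histone deacetylases. WT cells were compared with HRG1-KO cells, labelled as knockouts of the heme transporter HRG1, whose gene is SLC48A1. The 4 groups of 3 libraries were untreated WT, WT with 0.75 mM butyrate, untreated HRG1-KO and HRG1-KO with 0.75 mM butyrate. Butyrate was given 24 h after plating and again 48 h later, and cells were taken 6 h after the second dose. All groups grew in RPMI with heat-inactivated serum, glutamine and added non-essential amino acids. The number of KO clones, how the knockout was made and whether libraries came from separate cultures are not stated, so p-values measure only the spread between these libraries, which may be technical.

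Serine is made from an intermediate of glycolysis in a chain of reactions catalysed by PHGDH, PSAT1 and PSPH. Mitochondrial enzymes then move a carbon from serine onto folate (SHMT2), oxidise it (MTHFD2), and either release it as formate for purine and thymidylate synthesis (MTHFD1L) or burn it to carbon dioxide (ALDH1L2). ASNS makes asparagine from aspartate and glutamine. ALDH18A1 starts and PYCR1 completes the synthesis of proline from glutamate. In many cell types most of these genes are known targets of ATF4, a transcription factor whose translation rises when a kinase phosphorylates the initiation factor eIF2. In erythroid cells one such kinase is EIF2AK1, also called HRI, which is active when heme is scarce. Serine, glycine, asparagine and proline are among the amino acids of the usual non-essential supplement.

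ATF4 and its C/EBP partners are known to bind a composite element whose core was searched here as TGATGNAA, on both strands, in RefSeq promoter windows (GRCh38.p14) from 250 bases before to 50 bases after a transcription start. A window was held for 6 of the 10 genes (PHGDH, PSAT1, MTHFD2, MTHFD1L, ASNS and ALDH18A1). The core was found in 2 of these 6, MTHFD1L and ASNS, against 4.46% of the 27305 genes of the table with a window and 3.62% of all 35116 windows. The match in ASNS began 68 bases before the start, on the strand of the gene. That in MTHFD1L began 129 and 90 bases before a pair of annotated starts and 25 bases after another. The sites of both are shown because both genes recur in the results. Those of CEBPG and ATF3, genes of the ATF4 pathway, are added because their levels ran close to the mean of the 10. Of 16 regulators and marker targets of ATF4 with a window, 3 held the core (CEBPG, ATF3 and CHAC1). It lay in 5 of 8 amino acid carriers and 1 of 6 genes of asparagine, aspartate and glutamate. It lay in 0 of 14 genes of serine use, 0 of 13 of folate, 0 of 7 of purines and 0 of 6 of proline. Capitals mark the core, and in ASNS also GTTACA, a second element known from this promoter, which was searched after the sequence had been seen and lies in the windows of 8.07% of genes.
ASNS, chr7:97872449-97872478, minus strand: caTGATGAAActtcccgcacgcGTTACAgg
MTHFD1L, chr6:150866355-150866384, plus strand: tcTGATGCAAtcgcgccgggcgcgacccag
CEBPG, chr19:33374069-33374098, plus strand: tcTGATGCAAcctgccggcaacacccggcg
ATF3, chr1:212565214-212565243, plus strand: gaTGATGGAAggctgtcatatttagatgat
MTHFD1L and CEBPG share the core TGATGCAA with MARS1, CHAC1, GOT1, SLC1A4 and SLC1A5, whose sites are not shown. The level of MARS1 ran closer to the mean of the 10 than those of CEBPG and ATF3. These matches describe sequence alone, since no binding was measured.

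Library totals ran from 19963594 to 30348538 counts, and 3 counts, taken as the limit of detection, equalled 0.0953 to 0.162 CPM (counts scaled to library size, with the TMM correction between libraries). SLC48A1 stood at 58.9 to 83.8 CPM in the WT libraries and 2.94 to 10.1 CPM in the KO libraries, so the labels hold in all 12, with transcript reduced rather than absent. Erythroid markers were above 1 CPM in every group (9 of 9 genes), with sums of 7981 to 17490 CPM in untreated WT and 26160 to 56370 CPM in treated WT. They summed to 3326 to 5999 CPM in untreated KO and 4225 to 6113 CPM in treated KO. The libraries numbered 3 were the deepest in every group and those numbered 1 had the highest share of counts on the ribosomal RNA gene RNA28SN5 in every group, 2.30% to 5.63%.

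The genes spanned a wide range of levels. Per kilobase of exon in untreated WT, the scale on which levels of different genes can be compared, PYCR1 was highest at 166 ± 26.6 CPM per kb (SD, n = 3). PHGDH followed at 126 ± 107 and PSAT1 at 114 ± 47.5, and SHMT2 (100.5 ± 41.2) and MTHFD2 (100.3 ± 60.5) came next. Their spreads overlapped, so these 5 cannot be ordered. MTHFD1L stood at 38.6 ± 12.4, ALDH18A1 at 24.5 ± 4.78 and PSPH at 19.2 ± 9.48 CPM per kb. ALDH1L2 (4.58 ± 5.03) and ASNS (3.78 ± 1.38) were the lowest. The ASNS values are uncertain, because the gene overlaps the read-through transcript CZ1P-ASNS over 76325 bases and how reads shared by overlapping genes were counted is not given in the sources used here. CZ1P-ASNS itself held 124 counts over all libraries against 1241 for ASNS.

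**Figure D1:**
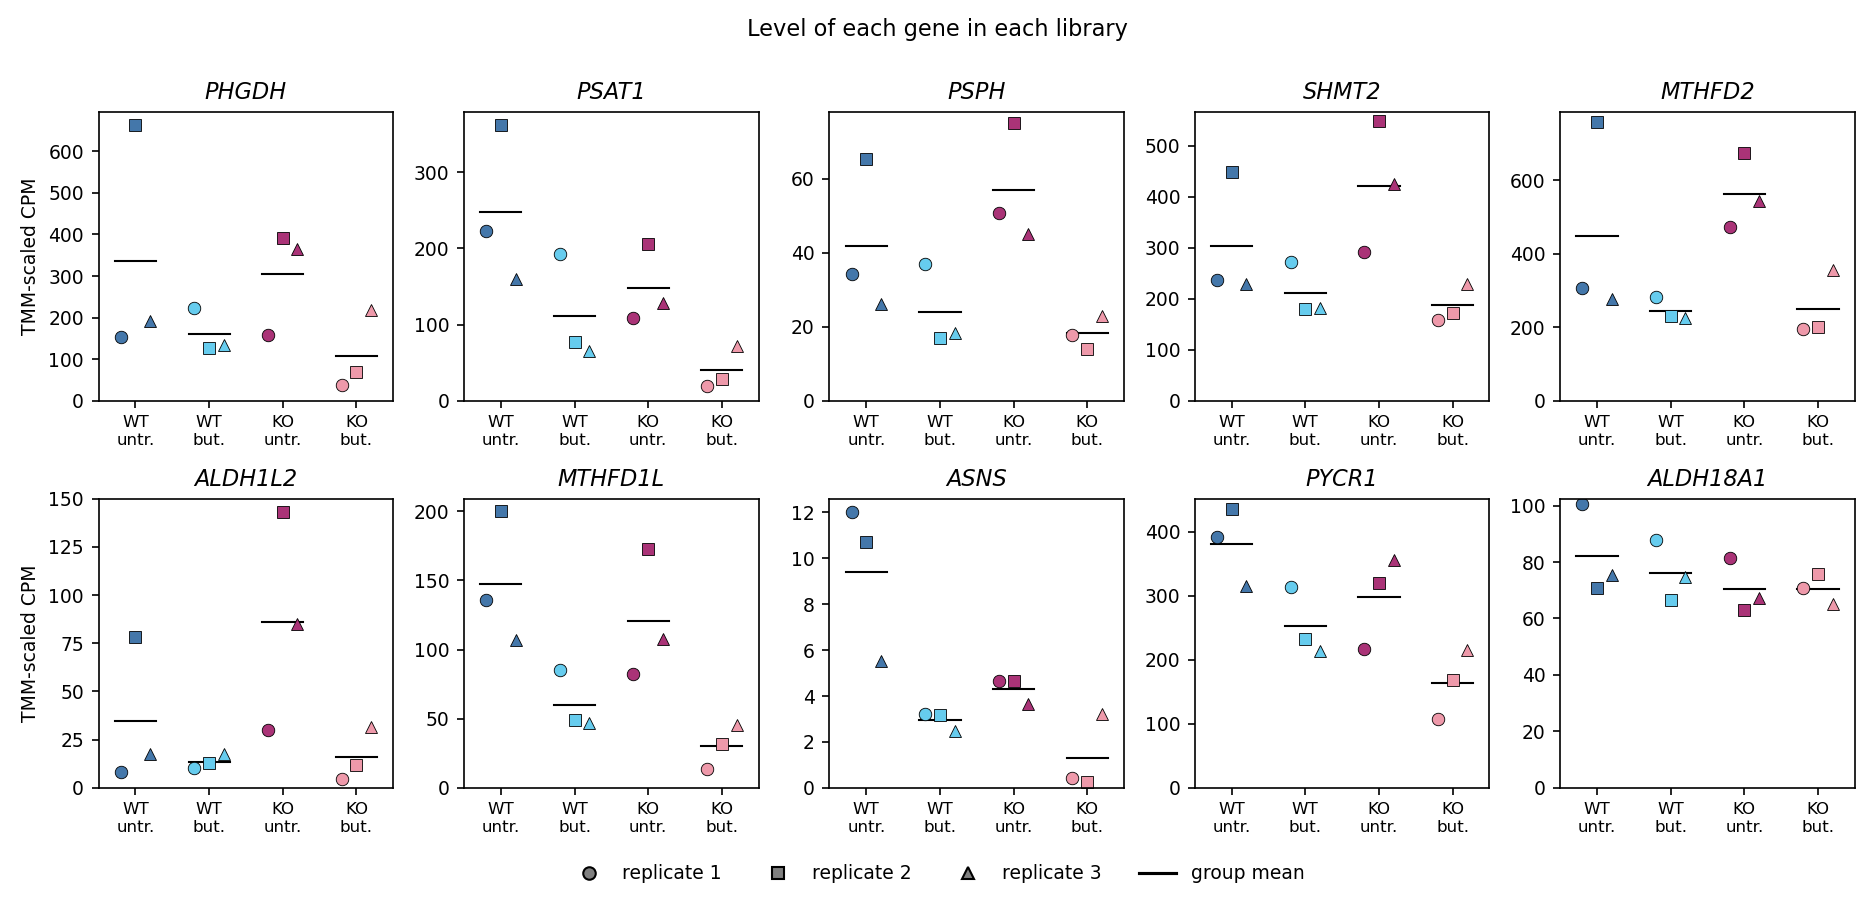
TMM-scaled CPM of each of the 10 genes (vertical axis, one panel per gene, each with its own scale from 0) in the 12 libraries, by group (horizontal axis; WT or KO, untr. for untreated, but. for butyrate). Symbols are replicate numbers and bars are group means; replicate 2 is the highest untreated library for 8 of 10 genes in both genotypes, and ALDH18A1 stays between 63.1 and 101.

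Under butyrate the estimates for 9 of the 10 genes were lower in both genotypes by more than 0.5 on the log2 scale, and that of ALDH18A1 was near 0. In KO cells MTHFD1L fell 3.99-fold and PSPH 3.12-fold, the 2 of 10 genes that passed the test. In WT cells none of the 10 passed, although all 10 had lower estimates, with a median log2 fold change of -0.96 against 0.02 for all tested genes. That median rested largely on 1 library, since it was -0.29 without replicate 2 of untreated WT. The KO median was -1.57 against 0 for all tested genes, and lay between -2.12 and -1.21 when single libraries were left out. In bulk RNA, fewer cells that express a gene and less RNA per cell cannot be told apart.

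The serine branch begins with PHGDH, which oxidises phosphoglycerate. In WT it stood at 152, 665 and 192 CPM in untreated replicates 1, 2 and 3 and at 223, 128 and 133 CPM after butyrate. Replicate 2 of untreated WT was far above the rest and the groups overlapped, and the log2 fold change was -1.06 (SE 0.65, edgeR quasi-likelihood test with Benjamini-Hochberg adjustment, adjusted p 0.433). In KO it went from 159, 391 and 365 CPM to 38.4, 68.4 and 219 CPM. Replicate 3 of treated KO exceeded replicate 1 of untreated KO, so these groups overlapped as well (log2 fold change -1.49, SE 0.66, adjusted p 0.232).

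PSAT1, the transaminase of the second step, read 223, 363 and 159 CPM in untreated WT and 192, 77.3 and 65.1 CPM in treated WT. Treated replicate 1 lay between the untreated values (log2 fold change -1.16, SE 0.52, edgeR adjusted p 0.268). In KO the values were 109, 206 and 129 CPM without and 19.1, 28.7 and 71.9 CPM with butyrate. Every treated KO library was below every untreated one, and the estimate of -1.89 (SE 0.53) missed the threshold at an edgeR adjusted p of 0.0739.

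PSPH, the phosphatase that releases serine, was the lowest of the 3 per kilobase. It read 34.2, 65.3 and 26.1 CPM in untreated WT against 36.8, 16.9 and 18.3 CPM in treated WT, again with treated replicate 1 among the untreated values (log2 fold change -0.80, SE 0.39, edgeR adjusted p 0.3004). In KO it fell from 50.7, 75.1 and 45.1 CPM to 17.7, 14.0 and 23.0 CPM. These groups were well apart, and the change of -1.64 (SE 0.39) passed the edgeR test (adjusted p 0.0406). It passed in 4 of the 12 refits that each lacked 1 library, with an adjusted p of up to 0.182 when replicate 2 of treated KO was missing.

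Among the mitochondrial folate enzymes MTHFD1L, the formate-releasing synthetase, moved most clearly. It read 136, 199.9 and 107 CPM in untreated WT and 85.2, 48.7 and 46.5 CPM in treated WT. The WT groups did not overlap, yet the edgeR adjusted p was 0.133 (log2 fold change -1.30, SE 0.42). In KO it fell from 82.0, 172 and 108 CPM to 13.6, 31.6 and 45.4 CPM, with no overlap (log2 fold change -1.997, SE 0.43, edgeR adjusted p 0.0288). It passed in 8 of the 12 refits that each lacked 1 library, and the adjusted p reached 0.141 when replicate 2 of untreated KO was missing.

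SHMT2, which moves the carbon from serine to folate, stood at 236, 449 and 229 CPM in untreated WT and at 272, 180.4 and 182 CPM in treated WT. These ranges overlapped (log2 fold change -0.53, SE 0.31, edgeR adjusted p 0.412). In KO it read 291, 548 and 425 CPM untreated and 159, 173 and 229 CPM treated. The KO ranges were apart, and the estimate of -1.17 (SE 0.31) had an edgeR adjusted p of 0.0624.

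MTHFD2, the dehydrogenase that follows, stood at 306, 758 and 277 CPM in untreated WT and at 282, 229 and 224 CPM in treated WT. The highest treated value just exceeded the lowest untreated one (log2 fold change -0.87, SE 0.36, edgeR adjusted p 0.229). In KO the values were 473, 672 and 542 CPM without and 196, 202 and 354 CPM with butyrate. They did not overlap (log2 fold change -1.17, SE 0.37, edgeR adjusted p 0.102). The end of MTHFD2 overlaps SLC4A5 over 1324 bases, a gene with 15 to 209 counts per library.

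ALDH1L2, the formyl-folate dehydrogenase, had the widest spread of the mitochondrial enzymes in 3 of the 4 groups, treated WT being the exception. Untreated WT libraries held 8.23, 78.1 and 17.5 CPM, a 9.49-fold range within 1 group, and treated WT libraries 10.2, 12.6 and 17.7 CPM. Untreated KO libraries held 30.01, 143 and 85.1 CPM and treated KO libraries 4.50, 11.6 and 31.6 CPM. The KO estimate, -2.43 (SE 0.84), was the largest of the 10 genes in size, and with overlapping groups its edgeR adjusted p was 0.131. In WT the estimate was -1.35 (SE 0.82, adjusted p 0.423).

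ASNS was scarce throughout. Untreated WT held 12.02, 10.7 and 5.51 CPM and treated WT 3.21, 3.16 and 2.48 CPM, so the groups did not overlap (log2 fold change -1.67, SE 0.73, edgeR adjusted p 0.254). Untreated KO held 4.65, 4.66 and 3.64 CPM and treated KO 0.413, 0.231 and 3.22 CPM. Replicates 1 and 2 of treated KO rested on 9 and 7 counts, and replicate 3 on 100. The KO estimate was -1.73 (SE 0.74, edgeR adjusted p 0.220), and without replicate 3 of treated KO it was -3.73 with an adjusted p of 0.00786. The pseudogene ASNSP1 had an estimate of the same sign in KO (-3.91, SE 1.17, adjusted p 0.0878), and reads of the gene and its pseudogene may be split between them.

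Both ends of the proline pathway were measured. PYCR1, the reductase of the last step, read 392, 436 and 315 CPM in untreated WT and 314, 232 and 214 CPM in treated WT, groups that were narrowly apart (log2 fold change -0.59, SE 0.28, edgeR adjusted p 0.286). In KO it went from 217, 320.2 and 356 CPM to 108, 168 and 216 CPM, again narrowly apart (-0.86, SE 0.28, adjusted p 0.110). ALDH18A1, the synthase of the first step, read 101, 71.0 and 75.2 CPM in untreated WT and 87.8, 66.4 and 74.7 CPM in treated WT. In KO it read 81.3, 63.1 and 67.4 CPM untreated and 70.7, 75.9 and 65.0 CPM treated. All 4 groups overlapped, and the log2 fold changes were -0.11 in WT (SE 0.19, edgeR adjusted p 0.823) and -0.00 in KO (SE 0.19, adjusted p 1.00), the latter turning positive under other scalings.

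**Figure D2:**
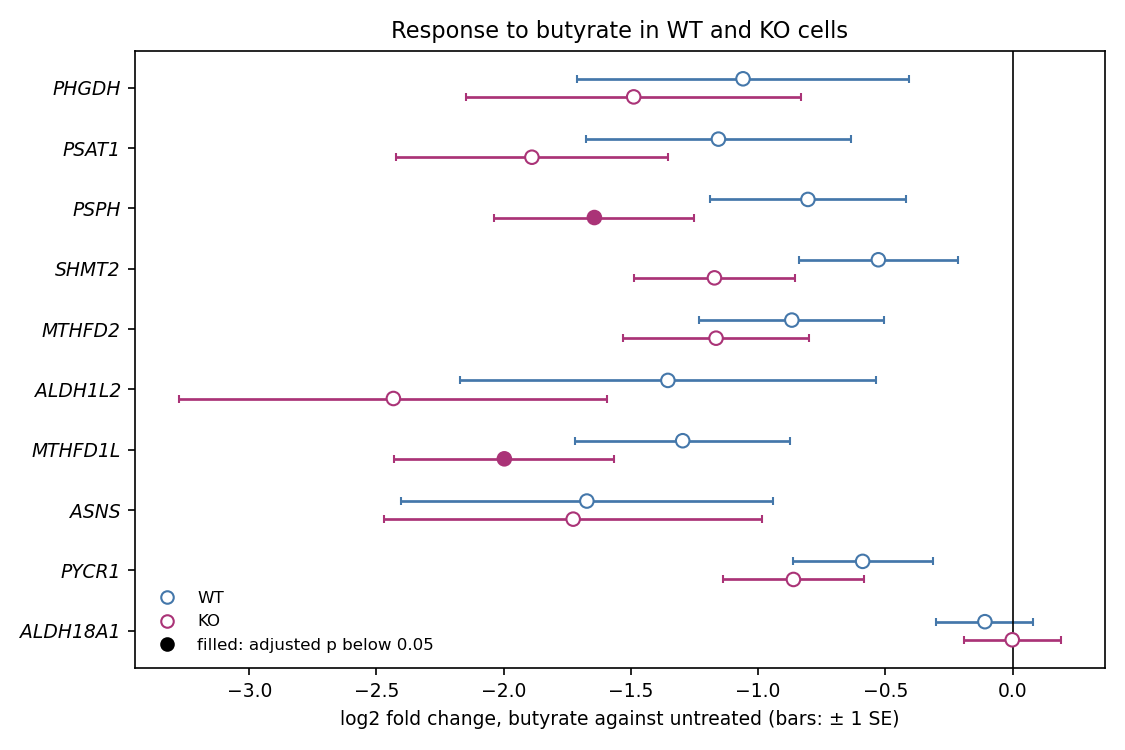
Log2 fold change of each gene, butyrate against untreated (horizontal axis, bars ± 1 SE from the edgeR fit), in WT (blue) and KO (purple). Filled points passed an adjusted p of 0.05; only PSPH and MTHFD1L in KO did, 9 of 10 estimates lie further left in KO, and ALDH18A1 sits near 0 in both.

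Counted against all tested genes, 0 of the 10 passed in WT, where 2.35% of genes passed in either direction and 0.550% as lower. DESeq2 called 1 of them in WT, MTHFD1L (adjusted p 0.0452), and 8.42% of all genes. At an unadjusted edgeR p under 0.05, 4 of 10 were lower in WT (PSAT1, MTHFD2, MTHFD1L and ASNS), against 7.07% of all genes. Groups did not overlap for 3 of 10, against 10.4% of all genes as lower. In KO 2 of 10 passed as lower, where 3.40% of genes passed in all and 0.595% as lower. At an unadjusted p under 0.05 there were 9 of 10 in KO against 7.54%, and groups did not overlap for 7 of 10 against 11.8%.

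Same-numbered libraries deviated together, and with the replicate number as a block the KO count rose from 2 to 6 of 10, against 3.92% of all genes called as lower in that fit. The genes added were ALDH1L2 (edgeR adjusted p 0.0200), SHMT2 (0.0275), PSAT1 (0.0471) and MTHFD2 (0.0480), and PYCR1 came close (0.0536). In WT the block called 0 of 10, against 3.14% of all genes as lower. By edgeR the KO count was 0 without the libraries numbered 2 (4 of 10 at an unadjusted p under 0.05), 1 without those numbered 3 and 6 without those numbered 1. The WT count was 0, 0 and 2 in the same order (0, 3 and 8 at an unadjusted p under 0.05). The counts over all genes moved in the same order, to 0, 69 and 2164 in KO and 0, 36 and 1884 in WT. The 0 without number 2 thus held for every gene tested by edgeR without the block (1004 in KO and 998 in WT at an unadjusted p under 0.05). With the block, 142 genes in KO and 71 in WT were called without number 2.

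Treated libraries also differed in markers of other cell types. The summed level of 4 stromal genes was 2.65 to 5.04 CPM in untreated WT and 43.9 to 109.5 CPM in treated WT, with 1 of 4 genes above 1 CPM. It was almost all COL1A1, whose mean went from 3.05 to 80.8 CPM, while COL3A1 stood at 0.227 and 0.0532 CPM. In KO the sum was 2.03 to 4.75 CPM untreated and 68.5 to 157 CPM treated (COL1A1 3.08 and 96.9 CPM), with COL3A1 at 0 counts in both KO groups. The sum of 5 megakaryocyte genes was 30.2 to 51.9 and 99.9 to 211 CPM in WT, and 14.6 to 54.4 and 75.7 to 101 CPM in KO, with PF4 at 0 counts in every library. Its rise was mostly ITGA2B, whose mean went from 36.2 to 136 CPM in WT and from 11.9 to 56.7 CPM in KO. GP1BA had means of 2.86 and 4.46 CPM in WT. In KO its libraries overlapped, at 9.74 to 39.6 CPM untreated and 23.1 to 35.9 CPM treated. The sum of 6 genes of other blood cells was 88.3 to 113 and 46.5 to 109 CPM in WT, and 7.01 to 13.3 and 30.9 to 35.3 CPM in KO, with MS4A1 at 0 counts in every library. In WT the mean of PTPRC was 76.7 CPM untreated and 37.9 CPM treated, and that of LYZ 14.5 and 20.3 CPM. In KO the rise was mostly LYZ, whose mean went from 5.12 to 23.9 CPM. The part of these markers in the results above was not tested.

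Whether KO cells responded differently from WT cells was asked with the interaction, the response in KO minus that in WT. Its estimates were negative for 9 of 10 genes, with a median of -0.54 on the log2 scale. That median moved with single libraries, to -0.15 without replicate 1 of treated WT, -1.01 without replicate 2 of untreated WT and -1.07 without replicate 3 of treated KO. Without the 4 libraries numbered 1 it was -0.01, with 5 of 10 estimates negative. In the fit to all libraries the estimates ran from -1.08 for ALDH1L2 (95% interval -3.54 to 1.39) to 0.11 for ALDH18A1 (-0.48 to 0.69). For MTHFD1L the interval was -1.98 to 0.58 and for PSPH -2.02 to 0.34, so a difference of either sign was within reach. By edgeR 0 of 10 genes passed, with 0 at an unadjusted p under 0.05, and DESeq2 also called 0. Over all genes edgeR called 0% of 15805, with 658 at an unadjusted p under 0.05, and DESeq2 called 86.

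Taking libraries number by number showed how unevenly the responses ran. In WT the median of the 10 log2 differences was -0.16 for the libraries numbered 1, -1.84 for those numbered 2 and -0.52 for those numbered 3. At number 1 PHGDH, PSPH, SHMT2 and ALDH1L2 were higher in the treated library. In KO the medians were -1.78, -2.43 and -0.79, and all 10 genes were lower at numbers 1 and 3 and 9 at number 2. MTHFD1L was lower in all 3 pairs of both genotypes, by log2 differences of -0.67, -2.04 and -1.20 in WT and -2.58, -2.45 and -1.25 in KO. ASNS was likewise lower in all 6 pairs, from -3.93 at number 2 of KO to -0.17 at number 3 of KO.

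**Figure D3:**
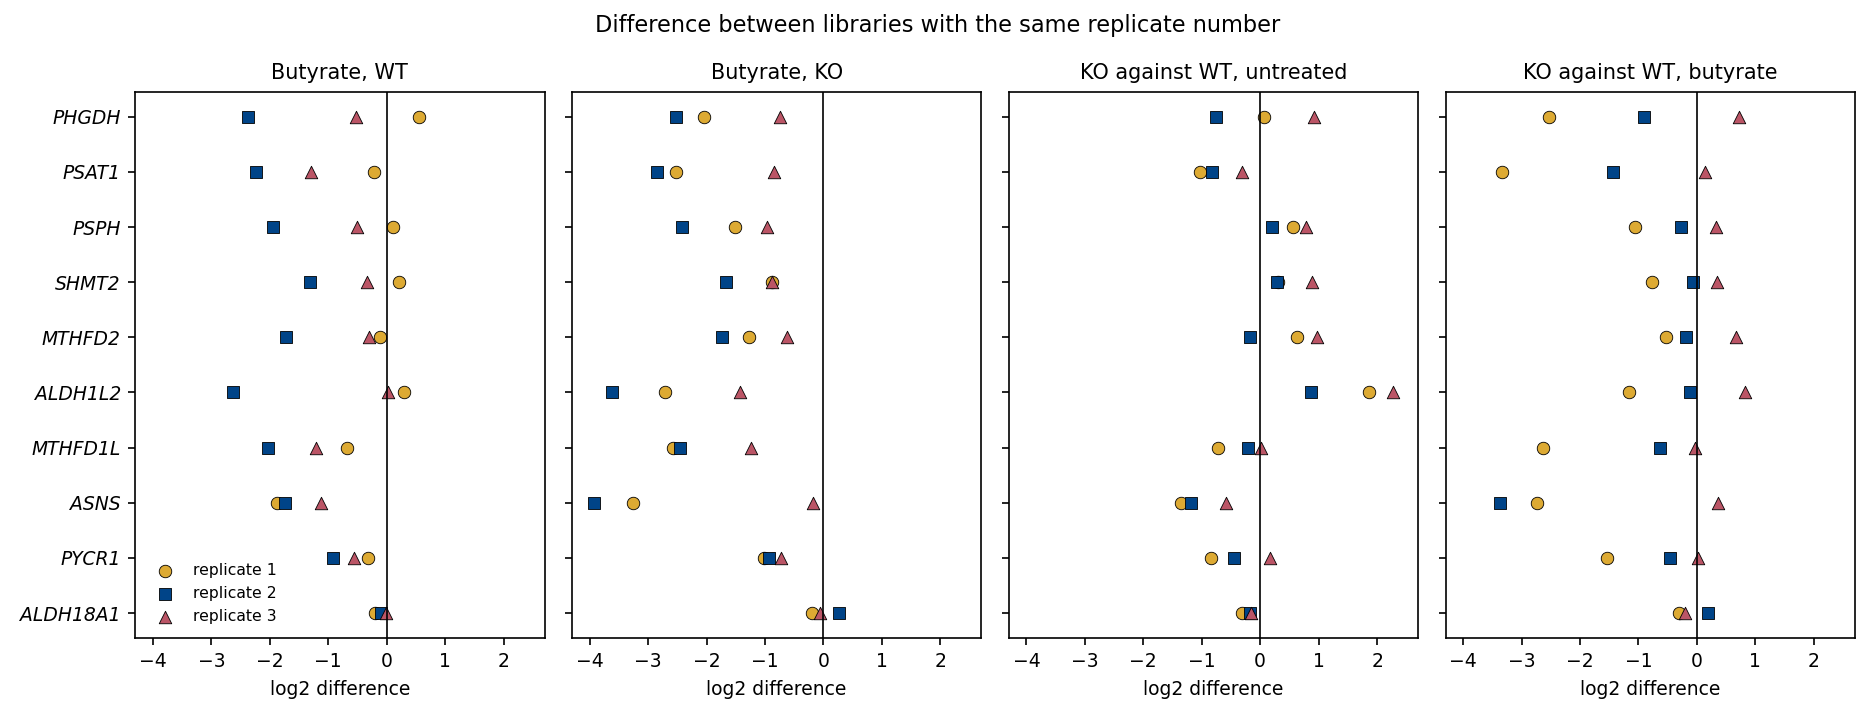
Log2 difference of each gene between libraries with the same replicate number (horizontal axis), for the 4 comparisons named above the panels; symbols and colours are replicate numbers. Number 2 lies furthest left for most genes in both butyrate panels, and for treated KO against treated WT number 1 lies left of 0 for all 10 genes while number 3 lies right of 0 for 8.

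The same libraries were high or low for most of the genes at once. Replicate 2 was the highest of untreated WT for 8 of 10 genes and of untreated KO for 8 of 10. Replicate 1 was the highest of treated WT for 9 and replicate 3 the highest of treated KO for 9. Summed over the 10 genes, the levels were 1601, 3095 and 1405 CPM in untreated WT and 1507, 994 and 977 CPM in treated WT. They were 1498, 2596 and 2126 CPM in untreated KO and 627, 773 and 1258 CPM in treated KO. Among the 9 genes other than ALDH18A1, the correlation of log2 CPM over the 12 libraries ran from 0.454 to 0.966 over 36 pairs (median 0.824). After subtracting the group means it still ran from 0.388 to 0.929 (median 0.771). These are descriptions over libraries that share groups, depth and number, and pairs with ALDH18A1 ran from -0.528 to 0.229.

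The effect of HRG1 loss was asked by comparing KO with WT within each treatment. In untreated cells 4 genes had higher and 6 lower estimates in KO, and 0 of 10 passed the edgeR test, against 22.6% of all tested genes. At an unadjusted p under 0.05 there were also 0, against 34.6% of all genes, and DESeq2 called 0, against 28.5%. The largest estimate was that of ALDH1L2, 1.32 (SE 0.81, 95% interval -0.44 to 3.07, edgeR adjusted p 0.280), higher in KO in all 3 same-numbered pairs. With the replicate block it was 1.46 (SE 0.55, edgeR adjusted p 0.0586). SHMT2 followed at 0.47 (SE 0.31, interval -0.21 to 1.14). ASNS had the lowest estimate, -1.12 (SE 0.72, interval -2.68 to 0.44, edgeR adjusted p 0.2996). It was the only one of the 10 whose untreated groups did not overlap, against 20.2% of all genes as lower. Without replicate 2 of untreated WT, ALDH1L2 and MTHFD2 passed as higher in KO, in a fit that called 2674 genes, or 16.3% of those tested.

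In butyrate-treated cells 8 of 10 estimates were lower in KO. PSAT1 had the lowest, -1.48 (SE 0.53, 95% interval -2.62 to -0.34, edgeR adjusted p 0.0691). It was called by DESeq2 (adjusted p 0.0218), as were 25.2% of all genes, and not by edgeR. MTHFD1L stood at -0.99 (SE 0.42, edgeR adjusted p 0.125), with treated KO values all below treated WT values, as for 16.0% of all genes, and PYCR1 at -0.63 (SE 0.28, adjusted p 0.137). By edgeR 0 of 10 passed against 19.0% of all genes, and these 3 genes had an unadjusted p under 0.05, against 15.1% of all genes as lower. The pairs differed: at number 1 all 10 genes were lower in treated KO (median -1.35), and at number 3 only 2 were (median 0.33). Leaving out replicate 3 of treated KO made PSAT1 and ASNS pass, in a fit that called 2376 genes, or 14.7% of those tested. The treated and untreated comparisons of genotype use different libraries, but each shares its libraries with the butyrate comparisons.

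Position in the genome was set beside these differences. ASNS (chr7:97851677-97928441, GRCh38.p14) lies on a chromosome whose 729 tested genes had a median KO against WT difference of -0.78 in untreated and -0.86 in treated cells. Its 50 nearest tested genes had medians of -0.85 and -0.88, close to the ASNS estimates of -1.12 and -1.18. PSPH, on the same chromosome (chr7:56011064-56051444), had neighbours at -0.42 and -0.47 and its own estimates at 0.44 and -0.40. The neighbours of MTHFD1L (chr6:150865702-151101887) stood at -0.44 and -0.54, with the gene at -0.29 and -0.99. Those of PSAT1 (chr9:78297125-78330093) stood at 0.19 and 0.10, with the gene at -0.75 and -1.48. For the other 6 genes the neighbours' medians lay between -0.23 and 0.20. The number of gene copies was not measured, and its part in these differences was not tested.

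**Figure D4:**
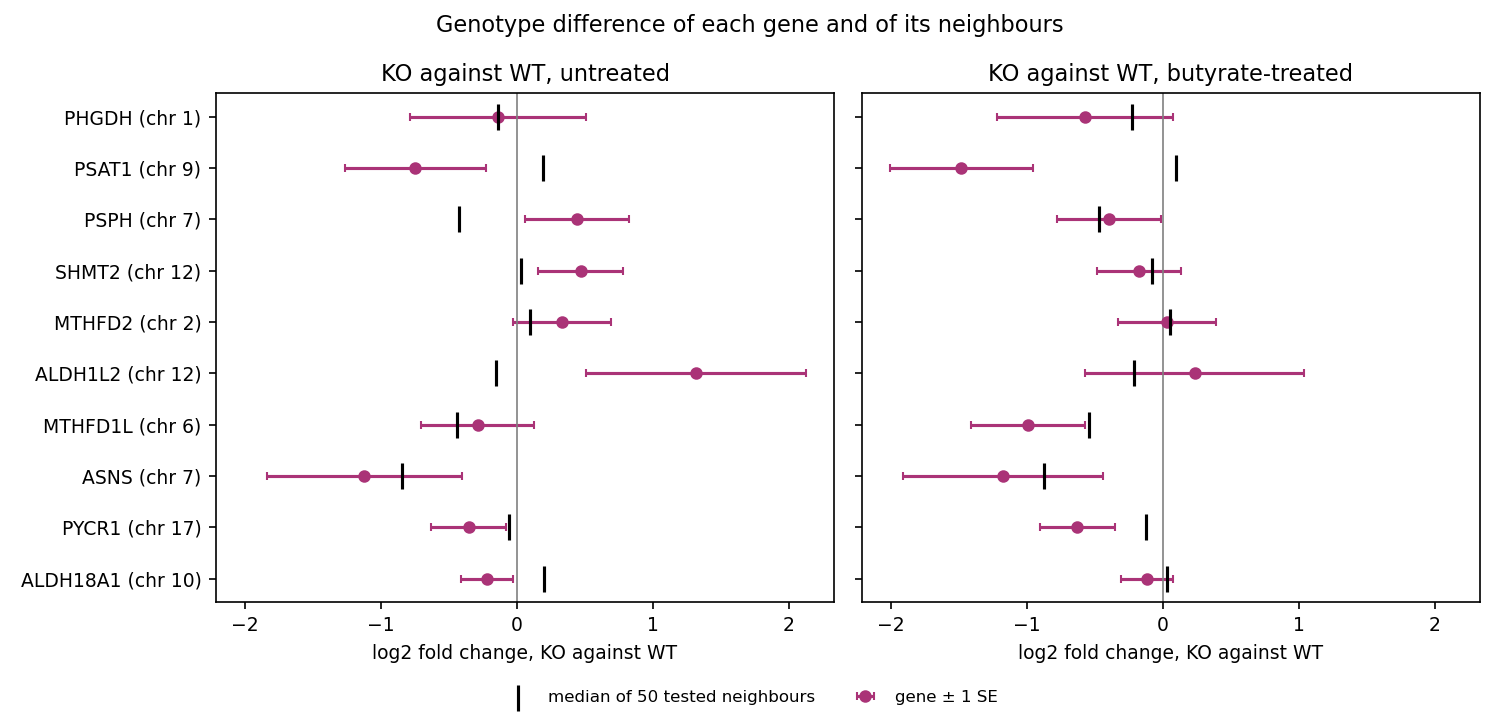
Log2 fold change of KO against WT (horizontal axis) for each gene (points, bars ± 1 SE) and the median of its 50 nearest tested genes on the chromosome (black ticks), in untreated (left) and butyrate-treated cells (right). ASNS lies near its neighbours' median of -0.85 and -0.88, and PSAT1 lies left of its own, at 0.19 and 0.10.

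Several members have paralogues, some of which work in another compartment or step. The estimates of these paralogues under butyrate are set beside those of the members. SHMT1, the cytosolic counterpart of SHMT2, had log2 fold changes of -0.18 in WT and 0.05 in KO (SE 0.21 in both), against -0.53 and -1.17 for SHMT2. MTHFD1, the cytosolic enzyme of several folate steps, had -0.19 and -0.15. PYCR3 had 0.18 and -0.04, while PYCR1 had -0.59 and -0.86. MTHFD2L, the mitochondrial relative of MTHFD2, had -0.58 and -0.83, against -0.87 and -1.17 for MTHFD2, and its edgeR adjusted p in KO was 0.107, or 0.00953 with the replicate block. Differences between paralogues were not tested. Per kilobase in untreated WT, SHMT1 stood at 10.0 ± 1.29 CPM (SD, n = 3) and MTHFD1 at 16.5 ± 5.47. ALDH1L1, the cytosolic relative of ALDH1L2, had -1.95 in WT (SE 0.95, edgeR adjusted p 0.331), against -1.35 for ALDH1L2. It held 58, 292 and 208 counts in untreated WT, 3, 59 and 107 in treated WT and 0 in all 6 KO libraries. It therefore passed the filter on low counts through the WT libraries alone, and its difference between genotypes is a description. Against a floor of 3 counts per library its mean level was at least 58.7-fold lower in untreated KO and at least 18.2-fold lower in treated KO, where replicate 1 of treated WT was itself at the floor.

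Lists of adjoining pathways were described the same way. Of 9 tested carriers of the same amino acids, 8 had lower estimates under butyrate in WT and 9 in KO, with medians of -0.72 and -1.52. SLC38A2, a carrier of small neutral amino acids, fell in WT (-1.11, SE 0.22, edgeR adjusted p 0.0238) and in KO (-1.12, SE 0.22, adjusted p 0.0203). SLC7A11, the cystine carrier, fell in KO (-2.91, SE 0.56, edgeR adjusted p 0.0200). With the replicate block SLC38A1 and SLC7A1 were called lower in KO as well, which made 4 of 9.

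The ATF4 list, 18 tested regulators and marker targets, had 14 lower estimates in WT and 18 in KO, with medians of -0.53 and -1.01. CEBPG, a C/EBP partner of ATF4, fell in KO (-1.50, SE 0.32, edgeR adjusted p 0.0286) and stood at -1.25 in WT (adjusted p 0.0647, or 0.0319 with the block, which called 2 of 18 lower in WT, CEBPG and EIF2AK2). ATF3 fell in KO (-2.27, SE 0.53, edgeR adjusted p 0.0381). ATF4 itself read 386, 570.4 and 475 CPM in untreated WT and 289.9, 506 and 374 CPM in treated WT. In KO it read 821, 793 and 872 CPM untreated and 302, 307 and 742 CPM treated, with replicate 3 the highest of treated KO, as for 9 of the 10 genes. Its KO estimate was -0.88 (edgeR adjusted p 0.165), or 0.0477 as an adjusted p with the replicate block, under which 5 of 18 were called lower in KO. TRIB3 (-2.47, adjusted p 0.0578), DDIT3 (-1.05, 0.224) and CHAC1 (-2.03, 0.229) did not pass in KO by edgeR without the block, with which TRIB3 had an adjusted p of 0.0296. Between genotypes, untreated KO values of ATF4 were all above untreated WT values, and edgeR without the block did not call it. With the block it was called higher in untreated KO (0.82, SE 0.28, edgeR adjusted p 0.0407), as were or were lower 33% of all genes. In treated cells its block estimate was 0.16 (SE 0.28, edgeR adjusted p 0.718). EIF2AK1, the heme-sensing kinase, was lower in KO than in WT without butyrate (-0.72, SE 0.16, edgeR adjusted p 0.00623) and with it (-1.001, SE 0.16, adjusted p 0.00103), and its 50 neighbours on chromosome 7 had medians of -0.64 and -0.67. VLDLR was at least 30.9-fold higher in untreated KO than in untreated WT, and passed the filter on low counts through the KO libraries.

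Purine synthesis, which uses formyl-folate, had 7 of 8 lower estimates in WT and 8 of 8 in KO, with medians of -0.54 and -0.64. ATIC, the enzyme of its last steps, fell in both (-0.68, edgeR adjusted p 0.0471, and -0.74, adjusted p 0.0288). The block called 4 of 8 in WT and 3 of 8 in KO, adding GART and PAICS in both and PFAS in WT. Other folate enzymes and carriers had medians of -0.29 and -0.26, and by edgeR 0 of 19 passed in either genotype (3 in WT and 5 in KO at an unadjusted p under 0.05; 2 and 1 by DESeq2). Enzymes of serine use stood at -0.18 and -0.06, with 1 of 14 called in KO, GLDC of the glycine cleavage system. GLDC held 14, 32 and 30 counts in treated KO and 0 to 3 elsewhere, so it passed the filter on low counts through that group alone and its call is given as a description only. Genes of asparagine, aspartate and glutamate stood at -0.21 and -0.15, with 1 of 9 called in KO, the glutamate dehydrogenase GLUD1 (-0.75, edgeR adjusted p 0.0352). Other genes of proline and ornithine stood at 0.18 and 0.20, and by edgeR 0 of 7 passed in either (1 in each at an unadjusted p under 0.05; 1 in WT and 0 in KO by DESeq2). With the block, which called 1361 of all 15805 genes in WT and 1852 in KO, the calls for serine use rose to 1 in WT and 4 in KO, for folate to 2 in each, for asparagine, aspartate and glutamate to 1 and 2, and for proline and ornithine to 1 and 3, OAT being called higher in both.

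Genotype differences were called by edgeR for several genes of these lists, beside 22.6% of all tested genes in untreated and 19.0% in treated cells. Untreated, calls were 1 of 14 for serine use, 3 of 19 for folate, 1 of 8 for purines and 1 of 7 for proline. Carriers had 0 of 9, asparagine 3 higher and 1 lower of 9, and the ATF4 list 1 and 1 of 18. Treated, calls were 2 of 19 for folate, 0 of 8 for purines, 2 of 7 for proline and 1 of 9 for carriers. The ATF4 list had 1 of 18, serine use 2 higher and 1 lower of 14, and asparagine 3 and 2 of 9. These counts include ALDH1L1 for folate in both treatments, VLDLR in untreated and GLDC in treated cells. Those genes passed the filter on low counts through the libraries where they are high, so their calls are descriptions only. ALDH4A1, which degrades a proline intermediate to glutamate, was lower in KO by edgeR without butyrate (-2.23, SE 0.24, adjusted p 4.7e-05) and with it (-1.73, SE 0.24, adjusted p 0.000353). The glutamine synthetase GLUL was lower in both (-1.76 and -0.92). The asparaginase ASRGL1 was higher in both (2.36 and 1.74), as was ASNSD1 (0.81 and 1.00). DLD, a subunit of the glycine cleavage system, was lower in both (-0.56 and -0.65). In untreated cells FTCD (-2.66) and ADSL (0.89) were called too, and with the block also in treated cells (edgeR adjusted p 0.0495 and 0.0313). In treated cells the further calls were OAT (-1.43; with the block also in untreated cells, at -1.02), GOT1 (-1.12), SLC38A1 (-1.47), SHMT1 (0.70) and GLDC, which passed the filter through treated KO alone. Whether these differences depended on treatment was tested by the interaction, which called 0 genes by edgeR.

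Genes whose pattern was most like that of the 10 were ranked by Pearson's r between log2 CPM and the mean z-score of the 10, over the 12 libraries and 11009 tested genes with a mean of at least 5 CPM. The first was POLR1E, a subunit of RNA polymerase I, at 0.963. INHBE, an inhibin subunit, followed at 0.945, and CTH, the last enzyme of cysteine synthesis, at 0.943. HAX1 stood at 0.942, the methionyl-tRNA synthetase MARS1 at 0.939 and RAB27A at 0.937. The leucyl-tRNA synthetase LARS1 stood at 0.935, TFB1M at 0.930, CEBPG at 0.928 and ATF3 at 0.927. Because these 10 genes were chosen by likeness over the same libraries, treated KO included, a fall there was partly set by the choice. Their responses to butyrate are therefore a description. In KO, LARS1 stood at -0.96 (edgeR adjusted p 0.0262) and RAB27A at -1.42 (adjusted p 0.0333). INHBE had the lowest estimate of these genes, -3.12 (adjusted p 0.0732), and CTH stood at -1.88 (0.0544, or 0.0317 with the block) and MARS1 at -1.14 (0.0784). Within the set itself, MTHFD1L followed the mean of the other 9 most closely (r 0.965), then PSAT1 (0.938) and PHGDH (0.914), with ALDH1L2 at 0.682 and ALDH18A1 at -0.05. These correlations rank genes over libraries that share groups and depth, and carry no test.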

How the data were processed

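The authors deposited 1 table of whole-number counts per gene for 12 libraries of total RNA. The submitters' processing notes name hg38, FastQC 0.12.1 and STAR 2.7.11b, without roles; the counting tool, annotation and use of strand are not given in the sources used here. All columns were matched to samples by library name (0 unused), and 0 lines lacked a gene.

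Counts were analysed in R 4.3.3 with edgeR 4.0.16: filterByExpr (minimum count 10), TMM scaling, 1 mean per group over all 12 libraries (biological coefficient of variation 0.384), the quasi-likelihood F-test for 5 contrasts, and Benjamini-Hochberg adjustment over 15805 genes at 0.05. DESeq2 1.42.0 was an alternative. The fit was tested on simulated data. Of 100 genes changed by 1 on the log2 scale, it called 15 under butyrate in WT and 16 in KO. Of 100 genes changed by 2, it called 79 and 85. No 2 libraries of a group were the same (chi-square per degree of freedom of at least 37.2). The members and the 7 surrounding lists, 89 further genes, were chosen with earlier results of these data known. Named were all members, their paralogues and pseudogenes, list genes past the threshold, SLC48A1, ATF4, DDIT3, TRIB3, CHAC1, EIF2AK1 and the 10 genes most like the members; a few named by this rule are not reported here. Levels per kilobase used exon unions of GENCODE v29; neighbours used RefSeq positions, matched for 15165 of the 15805 genes. With every library of a group at 3 counts or fewer, folds were taken against 3 counts per library.

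Deviations from group means correlated between same-numbered libraries at 0.195 to 0.409 (WT butyrate), 0.147 to 0.468 (KO butyrate), 0.210 to 0.361 (untreated genotype) and 0.315 to 0.595 (treated genotype). Differently numbered libraries reached 0.186, 0.123, 0.0692 and 0.343 in that order, the last above the lowest same-numbered value. The numbers were therefore taken as pairs in an alternative fit, the block of replicate number. The edgeR test without the block, which gave the calls and p-values unless stated, did not pair the libraries. Results for the block of replicate number are given beside the counts of the members and, for the surrounding lists, beside the butyrate counts and for several named genes whose call it changed. Totals of 19963594 to 30348538 counts set the limits of detection. These limits cover counting error only, and not the spread between libraries (biological coefficient of variation 0.384).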

Additional observations from a re-analysis of the deposited data

How the results depend on the processing

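The number of the 10 genes called under butyrate in WT, 0 in the edgeR test, was 1 by DESeq2 and 2 without the libraries numbered 1, and 0 to 1 when single libraries were left out. In KO the count of 2 became 4 with no filter, 1 with at least 10 counts in every library (ASNS then being untested), 5 by DESeq2, 6 with the replicate block and 6 without the libraries numbered 1. In alternatives added after seeing the data it was 0 without the libraries numbered 2, with or without the block, and 1 without those numbered 3. With the block and without number 2, 7 of 10 had an unadjusted edgeR p under 0.05 in KO, and 142 of all genes were called (0.877%). Leaving out single libraries gave 0 to 4: 0 without replicate 1, 2 or 3 of untreated KO or replicate 2 of treated KO, 1 without replicate 1 of treated KO, replicate 1 of untreated WT or replicate 2 of treated WT, 3 without replicate 3 of treated KO, and 4 without replicate 2 of untreated WT or replicate 1 of treated WT. For untreated KO against WT the count of 0 was 1 with only the 2 groups (ASNS), 1 with the block and without number 2 (ALDH1L2), and 0 to 2 over single libraries. For treated KO against WT it was 1 with no filter, 1 by DESeq2, 2 without number 3 and 0 to 2 over single libraries. The interaction called 0 of 10 in every fit. Paired by replicate number, the block changed no count of the 10 outside KO butyrate. Over all genes the butyrate counts, 372 in WT and 537 in KO, became 1361 and 1852 with the block, 1331 and 1538 by DESeq2, 1884 and 2164 without number 1, 36 and 69 without number 3, and 0 and 0 by edgeR without number 2 (998 and 1004 at an unadjusted p under 0.05). Leaving out single libraries gave 43 (without replicate 2 of untreated WT) to 1243 (without replicate 1 of treated WT) in WT, and in KO 48 (without replicate 2 of untreated KO) to 1039 (without replicate 1 of treated WT). With only the 2 groups WT gave 63, and the filter of 10 counts in every library gave 304 in KO. The genotype counts, 3574 untreated and 3009 treated, became 1018 and 684 without number 2, 1526 and 1096 without number 3, 2334 and 1947 under that filter, and 1802 for treated cells with only the 2 groups; with the block the treated count was 4612. The interaction called 86 genes by DESeq2, 3 with the block and 9 without number 1. Scaling by library size alone moved the median of all genes by 0.12 in KO butyrate and 0.11 in the interaction, took the share of calls that were lower from 17.5% to 9.53% in KO butyrate, and turned the sign of ALDH18A1 in KO butyrate and of ASNS in the interaction.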
